A study of Rattus norvegicus with 13 samples.

Results

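Fat of the daughters of rats fed a high-fat diet was compared with fat of control daughters in 7 arrays that carried little skeletal muscle and little brown fat signal. The 7 were chosen by their measured values among 13 arrays, each of 1 animal: the brightest probe of Myh4, a myosin heavy chain of fast skeletal muscle, and the brightest probe of Ucp1, the uncoupling protein of brown and beige fat, both had to lie below 8 on the log2 scale. This kept 4 daughters of control fathers (622, 627, 631 and 656, the numbers in their labels) and 3 daughters of high-fat fathers (620, 624 and 660), and left out 3 of each. The daughters were Sprague Dawley rats, which are outbred. Their fathers ate pellets with 43% fat or chow with 9% fat and were mated at 15 weeks of age with chow-fed females. The daughters ate chow from weaning at 3 weeks until the fat was collected at 14 weeks, so all groups shared the same mothers' diet and the same diet after weaning. The labels do not name the fat depot, the father or the litter of any daughter. The p-values below therefore measure only the spread between these samples, and would be too small where daughters of 1 group shared a father.

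White fat stores triglyceride in adipocytes, and a piece of it also holds blood and lymph vessels with their smooth muscle, nerves with Schwann cells, fibroblast-like progenitors, mesothelium at its surface and immune cells that include mast cells. Muscle that is dissected along with the fat, or patches of brown adipocytes, add transcripts that can outweigh those of the rarer cells. A set of genes common to many of these cells, the interferon-stimulated genes, is switched on by interferon through its receptors and signal transducers such as Stat2 and Irf9, and includes antiviral proteins of the Mx, Oas and Ifit families.

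In the kept arrays Myh4 lay between 6.53 and 6.99 and Ucp1 between 6.24 and 7.40. The array nearest the Ucp1 limit from inside was control 622 at 7.40, and the nearest outside was control 658 at 9.28. For Myh4 the nearest values were 6.99 inside (high-fat 624) and 10.85 outside (high-fat 619). Both genes had 1 probe each. These values chose the arrays and are given as a description. The labelled tissue was present in all 7: Adipoq, the adipocyte hormone adiponectin, was at 13.82, 13.86, 13.89 and 13.89 in controls 622, 627, 631 and 656 and at 13.88, 13.96 and 13.87 in high-fat 620, 624 and 660, and this order of arrays is used for all values below. Cidec, a lipid droplet protein, was at 13.07 to 13.24 in controls and at 13.13 to 13.30 in the high-fat group. Levels are the deposited log2 values, and are compared for the same gene only.

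**Figure D1:**
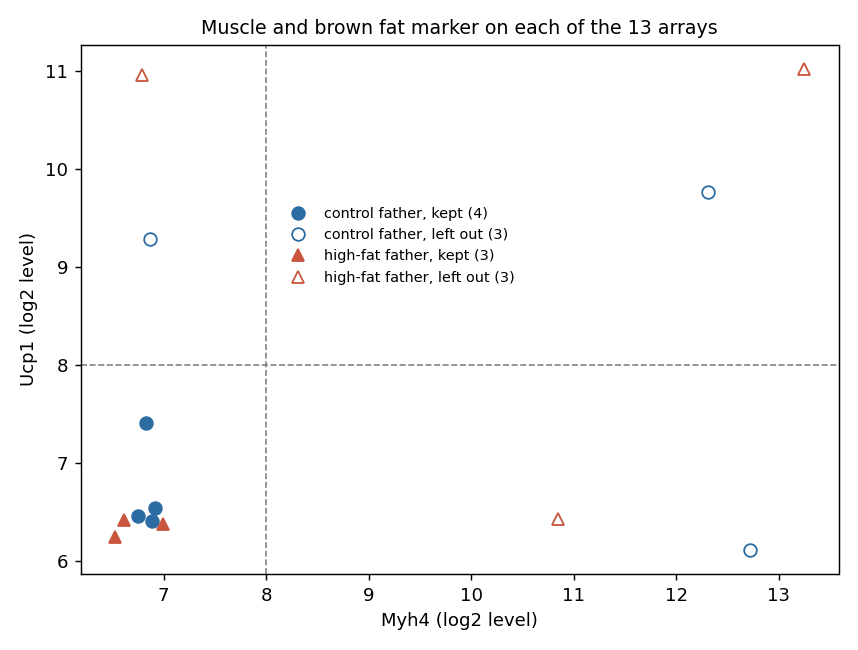
Level of Ucp1 (y axis, log2) against Myh4 (x axis, log2) on each of the 13 arrays, with the limit of 8 as dashed lines; filled symbols are the 7 kept arrays and open symbols the 6 left out. The kept arrays lie together at the lower left, with control 622 the highest of them for Ucp1 at 7.40.

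Across 14506 genes no gene reached an adjusted p under 0.05 in limma (0 genes, 0.0%). The smallest adjusted p was 0.060, for Susd2. At an unadjusted p under 0.05 limma called 627 genes (4.32%), 385 higher in the high-fat group (2.65%) and 242 lower (1.67%), where the threshold by itself gives 725.3. An ordinary linear model without moderation also called 0 genes after adjustment, and 546 at an unadjusted p under 0.05. The values of both groups did not overlap for 463 genes that were higher (3.19%) and 189 that were lower (1.3%). What follows describes genes by their values and by unadjusted p-values from this fit, and "higher" and "lower" refer to high-fat minus control. In simulated comparisons of this size, limma recovered 98.4% of genes that differed by 1 log2 unit, 57.6% at 0.5 and 3.2% at 0.25, with noise that was independent between genes. The noise followed limma's moderated spread, and 200 genes differed in each set, so these shares need not hold for the measured arrays. Among the measured genes, Slco2a1 differed by -1.04 with an adjusted p of 0.376 in limma. Ccl21 differed by -2.18 with an adjusted p of 0.997 in the same fit.

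The arrays were not equally far apart. High-fat 660 was the high-fat array closest to the controls for 274 of the 385 higher genes, and control 631 was the control closest to the high-fat group for 140 of the 242 lower genes. These 2 arrays also had the narrowest spread of all values, with a standard deviation of 1.86 each against 1.90 to 1.96 in the other 5. Their mean level of 1105 olfactory receptor genes was the highest, at 6.21 and 6.30 against 5.69 to 5.96. When high-fat 660 was left out the unadjusted calls went to 1180 higher and 724 lower. They went to 134 and 140 when high-fat 624 was left out, to 230 and 245 for high-fat 620, and to 305 and 422 for control 631. With the array's standard deviation as a covariate they were 585 and 474. The part of array spread in these counts was not tested further.

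The gene that stood furthest from its replicate spread was Susd2, which encodes a membrane protein found on mesenchymal stromal cells. Its level was 9.89, 9.94, 9.90 and 10.08 in the controls and 9.18, 9.23 and 9.20 in the high-fat arrays, so that the high-fat values lay close together and below every control. The means were 9.95 ± 0.09 (SD, n = 4) and 9.20 ± 0.02 (SD, n = 3), a difference of -0.75 ± 0.08 (SE), with an unadjusted p of 4.16e-06 and an adjusted p of 0.0604 (limma). Renewed quantile normalization gave an adjusted p of 0.036, an intensity trend with robust variance 0.048, the genes above the middle level alone 0.018, and a fit that shares the spread over all 13 arrays 0.015. Susd2 was therefore past the threshold under these 4 settings and not in the fit used here. Over the 7 fits that leave out 1 array the difference ran from -0.77 to -0.71.

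The second was Slco2a1, a transporter that takes up prostaglandins, at 9.47, 9.48, 9.84 and 10.05 in controls and 8.74, 8.58 and 8.70 in the high-fat arrays, a difference of -1.04 ± 0.14 (adjusted p 0.376, limma). Another organic anion transporter, Slco1a4, was at 7.20, 6.98, 6.78 and 7.20 against 6.46, 6.34 and 6.64, and the drug efflux pump Abcb1a at 7.32, 7.44, 7.31 and 7.47 against 7.05, 7.02 and 7.09. All 3 transporters are known from endothelium among other cells. None of them overlapped between the groups. Of the endothelial markers as a list, 12 of 26 measured members were higher on average, beside 56.5% of all genes, with a median difference of -0.001. At an unadjusted p under 0.05, 1 was higher, beside 2.65%, and 2 lower, beside 1.67%. The lower ones were Prox1 and Pdpn, given below with the lymphatic markers. Cldn5, a claudin of endothelial junctions, was at 8.30, 8.42, 8.27 and 8.46 against 8.54, 8.53 and 8.71 and Egfl7, a protein secreted by endothelium, at 10.02, 9.89, 9.94 and 10.11 against 10.31, 10.13 and 10.06, both with a higher mean in the high-fat group. Plxdc1, a receptor first described in vessels of tumours, had a control mean of 8.38 ± 0.09 (SD, n = 4) and a high-fat mean of 8.06 ± 0.05 (SD, n = 3), without overlap.

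Ccl21, the chemokine by which lymphatic vessels draw in dendritic cells and T cells, differed most in size among the 12 lower genes with the smallest p. It was at 9.26, 8.77, 9.87 and 10.64 in controls and 6.65, 7.33 and 8.40 in the high-fat arrays, a difference of -2.18 ± 0.49 (p 0.00156, adjusted p 0.997). The groups did not overlap, although high-fat 660 came closer to control 627 than to high-fat 624. Of the lymphatic markers, Prox1, the transcription factor of lymphatic identity, was at 6.40, 6.18, 6.46 and 6.94 against 6.04, 6.17 and 6.02, Pdpn at 11.26, 10.79, 10.87 and 11.14 against 10.92, 10.43 and 10.63, and Lyve1 at 12.29, 11.96, 12.11 and 12.19 against 12.14, 11.87 and 12.07. Prox1 did not overlap between groups, but only narrowly, with control 627 at 6.18 and high-fat 624 at 6.17, a gap far smaller than the spread within each group. Pdpn and Lyve1 overlapped. Here, as for every cell type named below, fewer cells of a type and less RNA per cell cannot be told apart in a piece of tissue.

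The interferon-stimulated genes had the highest median difference of the 44 gene lists examined. Their start-site sequences are shown first, for 4 members with a match to the motif that interferon-regulatory factors are known to bind, GAAA followed by any 2 bases and a further GAAA, searched on both strands. Each is the 250 bases before the gene start in the RefSeq annotation of the rat assembly GRCr8, 5′ to 3′ on the gene's strand, with the match in capitals. Rsad2 lies at chr6:48788121-48788370 on the minus strand, and the others on the plus strand, Ifi44l at chr2:243328473-243328722, Oas1a at chr12:41330216-41330465 and Cxcl10 at chr14:15988816-15989065.
Rsad2: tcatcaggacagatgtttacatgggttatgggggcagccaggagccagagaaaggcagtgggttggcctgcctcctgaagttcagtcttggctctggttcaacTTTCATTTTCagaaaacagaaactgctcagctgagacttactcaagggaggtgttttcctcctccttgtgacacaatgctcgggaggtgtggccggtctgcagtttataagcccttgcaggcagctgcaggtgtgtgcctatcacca
Ifi44l: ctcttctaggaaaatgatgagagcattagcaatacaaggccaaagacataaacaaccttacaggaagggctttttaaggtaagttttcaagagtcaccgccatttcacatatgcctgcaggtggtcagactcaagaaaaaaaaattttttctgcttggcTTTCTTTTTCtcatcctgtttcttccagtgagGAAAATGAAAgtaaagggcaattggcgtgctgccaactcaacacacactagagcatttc
Oas1a: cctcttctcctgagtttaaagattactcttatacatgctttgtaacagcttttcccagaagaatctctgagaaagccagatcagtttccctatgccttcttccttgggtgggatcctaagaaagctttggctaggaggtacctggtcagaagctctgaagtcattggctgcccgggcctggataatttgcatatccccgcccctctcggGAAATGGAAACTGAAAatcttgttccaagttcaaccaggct
Cxcl10: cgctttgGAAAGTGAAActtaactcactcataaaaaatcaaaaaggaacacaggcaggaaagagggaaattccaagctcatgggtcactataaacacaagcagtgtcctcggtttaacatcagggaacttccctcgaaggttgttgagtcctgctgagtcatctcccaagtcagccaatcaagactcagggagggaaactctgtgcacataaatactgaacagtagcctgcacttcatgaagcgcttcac
The match began 147 bases before the start in Rsad2, 91 and 59 bases before it in Ifi44l, 41 and 35 in Oas1a, where the matches overlap, and 243 in Cxcl10. In windows from 250 bases before to 50 after the start, 15 of the 24 list members with a window held the motif, against 1312 of all 33469 windows (3.92%). It was in 6 of the 11 members with an unadjusted p under 0.05 that have a window, and in 9 of the other 13. A match describes letters and is not a measured binding site.

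Of 36 genes on the list 31 were measured. The mean was higher in the high-fat group for 28 of them, 14 had an unadjusted p under 0.05 and all 14 were higher, beside 2.65% of all genes, and 6 did not overlap between groups, beside 3.19%. The median difference was 0.28, beside 0.02 over all genes. Among the antiviral effectors, Rsad2, the radical enzyme viperin, was at 7.62, 7.54, 7.71 and 7.61 in controls and 8.29, 8.07 and 8.09 in the high-fat arrays, a difference of 0.53 ± 0.08 (p 0.000147, adjusted p 0.691). The dynamin-like GTPase Mx2 was at 8.24, 8.07, 7.76 and 7.72 against 8.75, 8.68 and 8.76, a difference of 0.78 ± 0.13 (p 0.00019, adjusted p 0.691). Its paralog Mx1 was at 8.20, 7.75, 7.51 and 7.45 against 9.10, 8.37 and 8.66, a difference of 0.98 ± 0.21, which corresponds to 1.97-fold. In all 3 genes each high-fat array lay above each control, and the closest pair for both Mx genes included control 622.

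Herc6, a ligase of the family that attaches Isg15 to proteins, was at 9.18, 8.97, 8.66 and 9.02 against 9.57, 9.57 and 9.40. The ubiquitin-like Isg15 itself was at 7.14 ± 0.11 (SD, n = 4) against 7.42 ± 0.16 (SD, n = 3). Oasl, of the oligoadenylate synthetase family, was at 8.34, 7.99, 8.18 and 8.22 against 8.50, 8.57 and 8.36. These 3, with Rsad2 and the Mx genes, made up the 6 members without overlap. Ifi44l at 8.32, 8.10, 8.03 and 7.94 against 8.52, 8.82 and 8.28 and the chemokine Cxcl10 at 8.72, 8.54, 8.68 and 8.87 against 9.93, 9.18 and 8.80 had a higher mean with 1 high-fat array inside the control range, which was 660 in both. Parp9, a partner in the interferon response that is not on the list, was noticed after its values were seen and was at 9.75, 9.49, 9.37 and 9.63 against 10.14, 9.87 and 9.97.

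Among the transducers of the pathway, Stat2 differed by 0.24 ± 0.10 (p 0.0343), Irf9 by 0.10 ± 0.14 (p 0.481) and Irf7, the factor that amplifies the response, by 0.12 ± 0.22 (p 0.585). Gbp2, a guanylate-binding protein, differed by 0.18 ± 0.08, the chemokine Cxcl9 by 0.26 ± 0.11 and the transcription factor Irf1 by 0.13 ± 0.09. Members with a lower mean were Ifit1, Psmb8 and Bst2. Ifit1 was at 9.78, 9.37, 9.05 and 9.12 in controls and at 9.19, 9.19 and 6.18 in the high-fat arrays, so that high-fat 660 alone was far below the other 6. Such a low level was also found in 4 of the 6 left-out arrays, where the controls were at 6.51, 6.30 and 5.99 and the high-fat arrays at 8.69, 6.19 and 9.79, so both diet groups held arrays with a high and arrays with a low level. Without high-fat 660 the Ifit1 difference was -0.14.

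The counts for the list moved with single arrays and with the fit. Leaving out 1 array at a time gave between 7 and 20 members higher at an unadjusted p under 0.05, 7 with high-fat 620 left out, 8 with high-fat 624, 9 with control 627 or with control 631, and 20 with control 622, and a median difference of 0.19 to 0.34. Higher calls over all genes ran from 134 to 1180 in these fits. The count of 14 was 8 without moderation, 6 in the 4-group fit over all 13 arrays, whose shared spread includes the left-out arrays, and 3 when all 13 arrays were compared by diet, where the median was 0.17. Within the labels' number range 619 to 631, 3 controls against 2 high-fat arrays, the median was 0.27, and in the range 656 to 664, 1 array against 1, it was 0.16. Its mean level was 8.45 to 8.83 in controls and 8.69 to 8.98 in the high-fat arrays, so the summed level overlapped. Of 27 macrophage markers 6 had a higher mean, beside 56.5% of all genes, and 0 an unadjusted p under 0.05, beside 4.32%. Cd163, a scavenger receptor of macrophages, was at 11.37, 10.85, 11.04 and 11.06 against 10.91, 10.79 and 10.97. Of 34 markers of T and NK cells 15 had a higher mean and again 0 an unadjusted p under 0.05. At the share of all genes, lists of this size hold few calls, so a count of 0 does not set them apart. The part of immune cells in the interferon values was not tested.

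**Figure D2:**
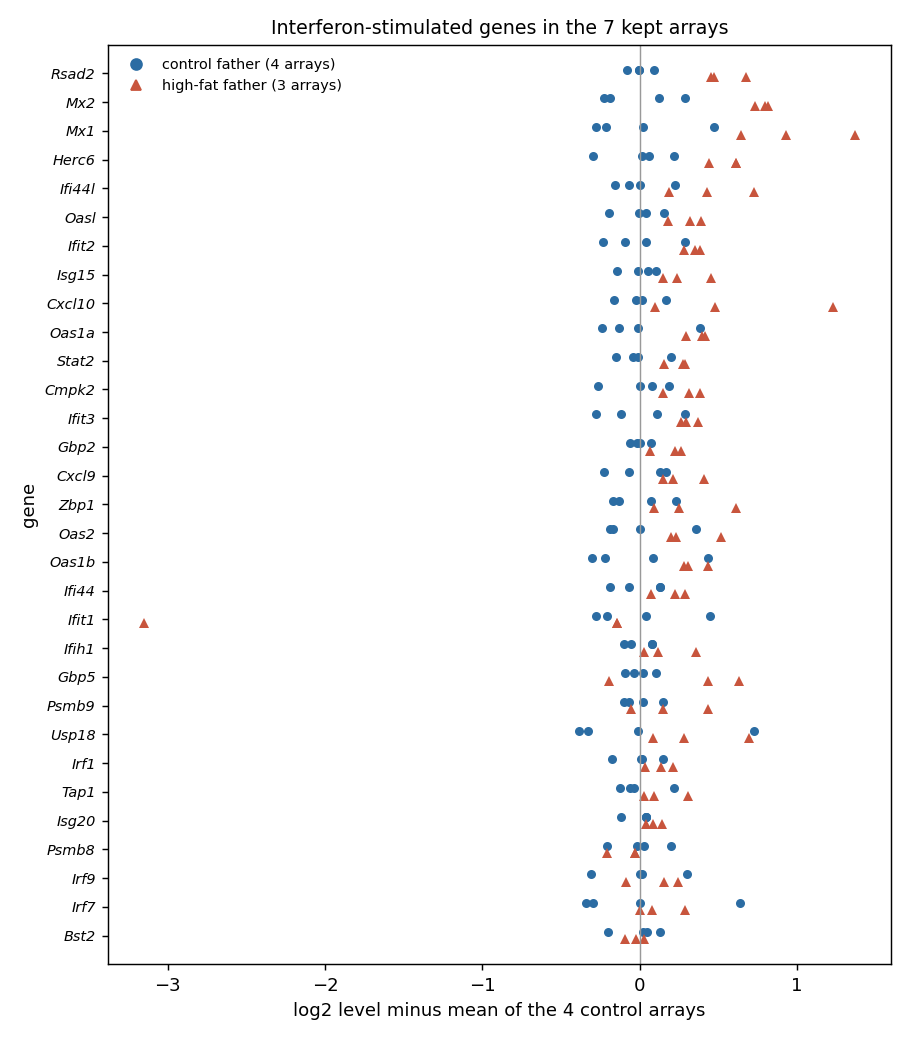
Level of each of the 31 measured interferon-stimulated genes on the 7 kept arrays (x axis, log2 level minus the mean of the 4 control arrays), ordered by p; circles are control and triangles high-fat arrays. The high-fat triangles lie to the right of all circles for Rsad2, Mx2, Mx1, Herc6, Oasl and Isg15, and the single triangle at the far left is high-fat 660 for Ifit1.

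Part of the list of smooth muscle and pericyte markers was lower. Of 22 markers of smooth muscle and pericytes 21 were measured, 10 had an unadjusted p under 0.05 and a lower mean, beside 1.67% of all genes, 9 of these did not overlap between groups, beside 1.3%, and 1, Mcam, was higher. Tagln, an actin-binding protein of smooth muscle, was at 11.12, 11.08, 11.25 and 11.29 in controls and 10.81, 10.78 and 10.75 in the high-fat arrays, a difference of -0.41 ± 0.08 (p 0.000584, adjusted p 0.997). Cnn1, calponin, was at 8.88, 8.80, 9.15 and 9.58 against 8.18, 8.44 and 8.30, a difference of -0.80 ± 0.17. Tpm1, a tropomyosin, was at 10.35, 10.28, 10.21 and 10.29 against 10.05, 9.88 and 9.91. In each of these 3 genes all high-fat arrays lay below all controls.

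Des, the intermediate filament desmin, was at 9.16, 9.13, 9.03 and 9.40 against 8.86, 8.85 and 8.63. Acta2, smooth muscle actin, was at 13.36, 13.34, 13.33 and 13.36 against 13.16, 12.98 and 13.14, with the 4 controls close together. Myh11, the smooth muscle myosin, was at 10.34, 10.52, 10.23 and 10.63 against 10.17, 10.04 and 10.14. The other members with a lower mean and an unadjusted p under 0.05, named after their values were seen, were Actg2, Kcnmb1, Myl9 and Tpm2, with differences of -0.70 ± 0.21, -0.57 ± 0.19, -0.23 ± 0.08 and -0.36 ± 0.13. Of these 4, only Tpm2 overlapped between the groups.

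The other 10 members did not pass an unadjusted p of 0.05 in either direction, and all of them overlapped between the groups. Lmod1, leiomodin, differed by -0.14 ± 0.09, Mylk, the myosin light chain kinase, by -0.12 ± 0.08, Cald1, caldesmon, by 0.13 ± 0.10 and Smtn, smoothelin, by 0.03 ± 0.08. Of the members known from pericytes, Rgs5, a regulator of G-protein signalling, differed by 0.11 ± 0.09, Cspg4, a surface proteoglycan, by 0.20 ± 0.14, Kcnj8, a potassium channel, by 0.12 ± 0.09, its partner subunit Abcc9 by -0.08 ± 0.14 and the receptor Notch3 by 0.02 ± 0.10. Mcam, an adhesion molecule of mural and endothelial cells, was at 12.27, 12.38, 12.44 and 12.49 against 12.70, 12.77 and 12.54, above every control in each high-fat array. The regulator Myocd, which drives the contractile genes, differed by -0.14 ± 0.09 (p 0.166). Because Des, Tpm1 and Tpm2 are also skeletal muscle genes, the muscle values stand beside them, with the limit that these arrays were kept for a low Myh4 level, so that the muscle values are a description. Of 31 measured skeletal muscle genes 1 was higher (Ldb3, 0.17 ± 0.07) and 1 lower (Myl1, -0.31 ± 0.12) at an unadjusted p under 0.05. Over all genes 2.65% were higher and 1.67% lower. The median difference of the muscle genes was 0.01. Leaving out 1 array at a time gave 7 to 11 lower members, the fewest without high-fat 624. Lower calls over all genes ran from 140 to 724 in these fits, also with the fewest without high-fat 624. In the 4-group fit 0 of the 21 members were lower at an unadjusted p under 0.05.

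**Figure D3:**
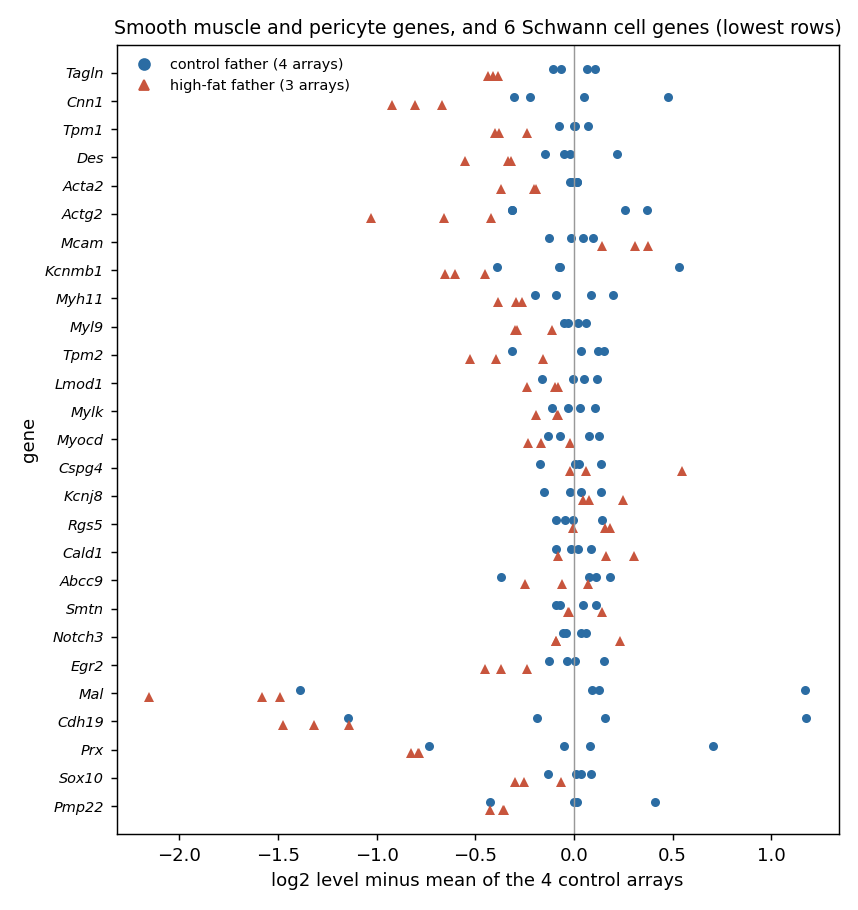
Level of the 21 measured smooth muscle and pericyte genes and, in the lowest rows, 6 genes of Schwann cells on the 7 kept arrays (x axis, log2 level minus the mean of the 4 control arrays); circles are control and triangles high-fat arrays. The triangles lie left of all circles for Tagln, Cnn1, Tpm1, Des and Acta2, and in the rows of Mal, Cdh19 and Prx the leftmost circle, control 631, lies near the triangles.

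Part of the list of nerve and Schwann cell genes was lower, with a different distribution over the arrays. Of 18 measured members 8 had a higher mean, 6 were lower at an unadjusted p under 0.05, beside 1.67% of all genes, and 0 higher, 3 lower members did not overlap, beside 1.3%, and the median difference was -0.05. Egr2, a transcription factor of myelination, was at 7.97, 8.10, 8.06 and 8.25 in controls against 7.64, 7.73 and 7.86. Mal, a membrane protein of myelin, was at 9.83, 9.86, 8.35 and 10.91 against 7.58, 8.16 and 8.25, a difference of -1.74 ± 0.49 (p 0.00623). Prx, periaxin, was at 8.59, 8.46, 7.78 and 9.21 against 7.68, 7.73 and 7.72, and Cdh19, a cadherin of Schwann cells, at 7.17, 6.82, 5.87 and 8.19 against 5.54, 5.70 and 5.87. In Mal, Prx and Cdh19, control 656 was highest, controls 622 and 627 were between, and control 631 was at or next to the high-fat level. Sox10, the factor of Schwann cell identity, differed by -0.21 ± 0.09, and Pmp22, a protein of peripheral myelin, by -0.38 ± 0.17. Myelin basic protein, Mbp, differed by 0.22 ± 0.13 and S100b, a calcium-binding protein of Schwann cells, by 0.13 ± 0.12, both with a higher mean in the high-fat group. The probes of Mbp disagreed, and their mean gave a difference of -0.38 in place of the brightest probe's value. Of the axonal members, Stmn2, which binds tubulin, differed by 0.24 ± 0.12 and Prph, the filament peripherin, by -0.10 ± 0.11.

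Control 631 was also the lowest control in several genes on no nerve list, which were noticed after their values were seen. Apod, a lipid-binding protein of nerve sheaths and fibroblasts, was at 11.84, 11.59, 9.39 and 12.38 in controls and 7.74, 8.57 and 9.42 in the high-fat arrays, a difference of -2.72 ± 0.66, the lowest of all 14506 genes, with control 631 inside the high-fat range. Fxyd6, a regulator of the sodium pump, was at 8.99, 8.75, 7.75 and 9.73 against 7.04, 7.32 and 7.41. Scd2, a fatty acid desaturase, was at 10.45, 10.10, 8.68 and 11.18 against 8.71, 8.86 and 8.85, again with control 631 at the high-fat level. The secreted Wnt antagonists Sfrp5, Sfrp1, Sfrp4 and Sfrp2 accounted for all 4 members of 28 Wnt genes with an unadjusted p under 0.05. All 4 had a lower mean, beside 1.67% of all genes that were lower at this threshold. Sfrp5 was at 9.03, 8.97, 8.20 and 9.67 against 8.08, 8.29 and 8.28, and Sfrp2 at 10.85, 10.13, 9.37 and 10.80 against 9.10, 9.26 and 9.97, where control 631 lay inside the high-fat range for both. Without control 631, 8 instead of 6 nerve and Schwann members were lower, and 10 instead of 3 mesothelial members. Lower calls over all 14506 genes also rose in that fit, to 422 from 242.

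Mesothelial markers had the lowest median difference of the lists, -0.17, with 5 of 22 measured members higher on average, beside 56.5% of all genes. At an unadjusted p under 0.05, 3 were lower, beside 1.67%, and 1 higher, beside 2.65%. Bnc1, a transcription factor of mesothelium, was at 7.58, 7.79, 7.59 and 7.41 against 7.14, 6.89 and 7.29, and Sbsn, a secreted epithelial protein, at 8.69, 8.63, 8.66 and 8.07 against 7.79, 8.07 and 7.67. Neither overlapped. The defining markers Msln, mesothelin, at 9.04, 9.67, 8.18 and 9.16 against 8.46, 8.48 and 8.67 and Wt1 at 7.91, 8.47, 7.47 and 8.23 against 7.89, 7.65 and 7.69 overlapped between groups. Slpi, a protease inhibitor of secretory epithelium, was the member with a higher mean, at 10.36, 9.55, 10.07 and 9.95 against 10.91, 10.24 and 10.31.

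Of the mast cell genes, tryptases and chains of the receptor for immunoglobulin E were lower in the high-fat group of the kept arrays. Of 25 measured genes of neutrophils and mast cells 6 were lower at an unadjusted p under 0.05, beside 1.67% of all genes, and 0 higher, 4 lower members did not overlap, beside 1.3%, and the mean level of the list did not overlap either, at 7.56 to 7.71 in controls and 7.43 to 7.49 in the high-fat arrays. Fcer1a, the alpha chain of that receptor, was at 7.05, 7.46, 6.93 and 7.18 against 6.92, 6.50 and 6.77, and Ms4a2, its beta chain, at 7.65, 7.82, 7.67 and 7.67 against 7.56, 7.32 and 7.47. The tryptase Tpsb2 was at 8.60, 8.67, 8.35 and 8.72 against 8.26, 8.32 and 8.32 and Tpsab1, whose sequence is so close that their probes may share signal, at 9.50, 9.74, 9.15 and 9.55 against 9.27, 9.00 and 8.80. Cpa3, the mast cell carboxypeptidase, differed by -0.33 ± 0.13 (p 0.0287). Kit, the receptor that mast cells depend on, differed by -0.09 ± 0.16 (p 0.576). The only neutrophil-linked gene among the 6 was Retnlg, a resistin-like secreted protein, at 7.97, 8.66, 7.99 and 7.85 against 7.24, 6.88 and 7.50, while Mpo, myeloperoxidase, differed by 0.34 ± 0.15 and Mmp9, a gelatinase of neutrophils, by -0.13 ± 0.09. Leaving out 1 array at a time gave 3 to 8 lower members, the fewest without high-fat 624, where lower calls over all genes were also fewest, at 140.

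Genes of the adipocyte itself and of its mitochondrial fuel use were on the higher side. Of 27 measured adipocyte genes 25 had a higher mean, beside 56.5% of all genes, 6 were higher, beside 2.65%, and 1 lower at an unadjusted p under 0.05, 8 higher members did not overlap, beside 3.19%, and the median difference was 0.13. Bright genes were more often higher: of the 7253 genes above the middle mean level, fitted alone, 344 were higher and 123 lower, with a median of 0.05. In that fit 6 of 25 adipocyte members were higher, with a median of 0.12. Slc2a4, the insulin-regulated glucose transporter, was at 8.92, 8.59, 8.80 and 8.60 in controls against 9.09, 9.41 and 9.03, a difference of 0.45 ± 0.12 (p 0.00487, adjusted p 0.997). Cav2, a caveolin, was at 11.46, 11.45, 11.56 and 11.46 against 11.75, 11.95 and 11.65, and Pck1, which supplies glycerol for triglyceride, at 12.79, 12.74, 12.72 and 12.79 against 13.01, 13.05 and 12.88. In these 3 genes each high-fat array lay above each control. The droplet protein Plin1 at 12.37, 12.33, 12.26 and 12.23 against 12.51, 12.66 and 12.38 and the lipase Lipe at 12.78, 12.79, 12.74 and 12.82 against 12.95, 13.01 and 12.89 did not overlap either.

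Lep, the satiety hormone leptin, was at 10.70, 10.27, 11.19 and 10.62 against 11.18, 11.26 and 11.20, where control 631 reached the high-fat level and the 3 high-fat arrays lay close together. Pparg, the master regulator of the adipocyte, differed by 0.04 ± 0.10 and Adipoq by 0.04 ± 0.07, both smaller than their standard errors. The member with a lower mean at an unadjusted p under 0.05 was Retn, resistin, at 9.93, 9.85, 9.12 and 9.98 against 9.30, 8.97 and 9.40.

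Breakdown of branched-chain amino acids, a pathway that adipocytes use for lipid synthesis, had the second highest median difference, 0.21. Of 23 measured members 21 had a higher mean, beside 56.5% of all genes, 9 were higher at an unadjusted p under 0.05, beside 2.65%, 0 lower, and 4 higher members did not overlap, beside 3.19%. Pccb, a subunit of propionyl-CoA carboxylase, was at 10.07, 10.37, 10.28 and 10.32 against 10.66, 10.61 and 10.40. Echs1, a hydratase shared with fatty acid oxidation, was at 10.92, 11.01, 10.86 and 11.00 against 11.21, 11.25 and 11.08. Dld, a subunit of the branched-chain, pyruvate and oxoglutarate dehydrogenases, was at 9.67, 9.88, 9.74 and 9.94 against 10.13, 10.23 and 9.94, and Bcat2, the mitochondrial aminotransferase of the first step, at 9.07, 9.24, 9.02 and 9.01 against 9.50, 9.38 and 9.19. Bckdk, the kinase that holds the pathway's dehydrogenase in check, and Ppm1k, the phosphatase that releases it, were both higher on average, by 0.23 ± 0.09 and 0.21 ± 0.09.

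Over all genes, 56.5% had a higher mean, and 2.65% were higher and 1.67% lower at an unadjusted p under 0.05. These shares stand beside the counts of each list in this paragraph. Most members of these lists are bright, with 27 of 27 citric acid cycle and 65 of 68 oxidative phosphorylation genes above the middle mean level. Of all 7253 genes above it, 344 were higher at an unadjusted p under 0.05 when fitted alone. The citric acid cycle list gave 25 of 27 members with a higher mean, 6 higher at an unadjusted p under 0.05 and a median of 0.16. It was led by Aco1, an aconitase, at 11.22, 11.07, 10.98 and 11.19 against 11.42, 11.56 and 11.24 and Pdhb, of pyruvate dehydrogenase, at 9.24, 9.19, 8.90 and 9.27 against 9.44, 9.53 and 9.30. Fatty acid oxidation gave 23 of 28 and 3, with a median of 0.15, led by Acads, the short-chain dehydrogenase, at 8.13, 8.19, 8.13 and 8.31 against 8.47, 8.59 and 8.39. Oxidative phosphorylation gave 53 of 68 with a higher mean but 2 at an unadjusted p under 0.05, near the 2.65% of all genes, and a median of 0.09. Lipogenesis gave 5 higher and 1 lower of 29, with Dgat1, which makes triglyceride, at 11.42, 11.41, 11.37 and 11.44 against 11.64, 11.73 and 11.54 and the elongase Elovl5 at 12.01, 12.03, 12.12 and 12.15 against 12.37, 12.55 and 12.17.

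The calls in the branched-chain and citric acid cycle lists fell without high-fat 620 or 624, as did the higher calls over all genes. High-fat 660 had the lowest mean level of the 3 for each of the metabolic lists above. For the branched-chain list it was at 9.83 against 9.64 to 9.90 in controls and 10.01 and 10.07 in high-fat 620 and 624. For the adipocyte list high-fat 660 was at 11.60, above the controls at 11.48 to 11.58. Without high-fat 620 or without high-fat 624, 0 of the 23 branched-chain members were higher at an unadjusted p under 0.05, and without high-fat 660 10 were. For the citric acid cycle the counts were 1, 0 and 16. For adipocyte genes they were 4, 2 and 8, and for lipogenesis 4, 0 and 6, so these 2 lists kept calls without high-fat 620. In the number range 656 to 664, high-fat 660 met control 656. The medians there were -0.02 for the branched-chain list, -0.02 for the citric acid cycle, -0.06 for fatty acid oxidation and 0.04 for adipocyte genes. In the range 619 to 631 they were 0.26, 0.25, 0.23 and 0.18. With the array's standard deviation as a covariate, the medians in the same order were 0.16, 0.11, 0.11 and 0.12. At an unadjusted p under 0.05 (limma), 10, 5, 5 and 7 members were then higher, beside 585 of all 14506 genes. The meaning of the number ranges is not given. The part of array spread in these lists was not tested further, and that of tissue makeup was not tested.

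**Figure D4:**
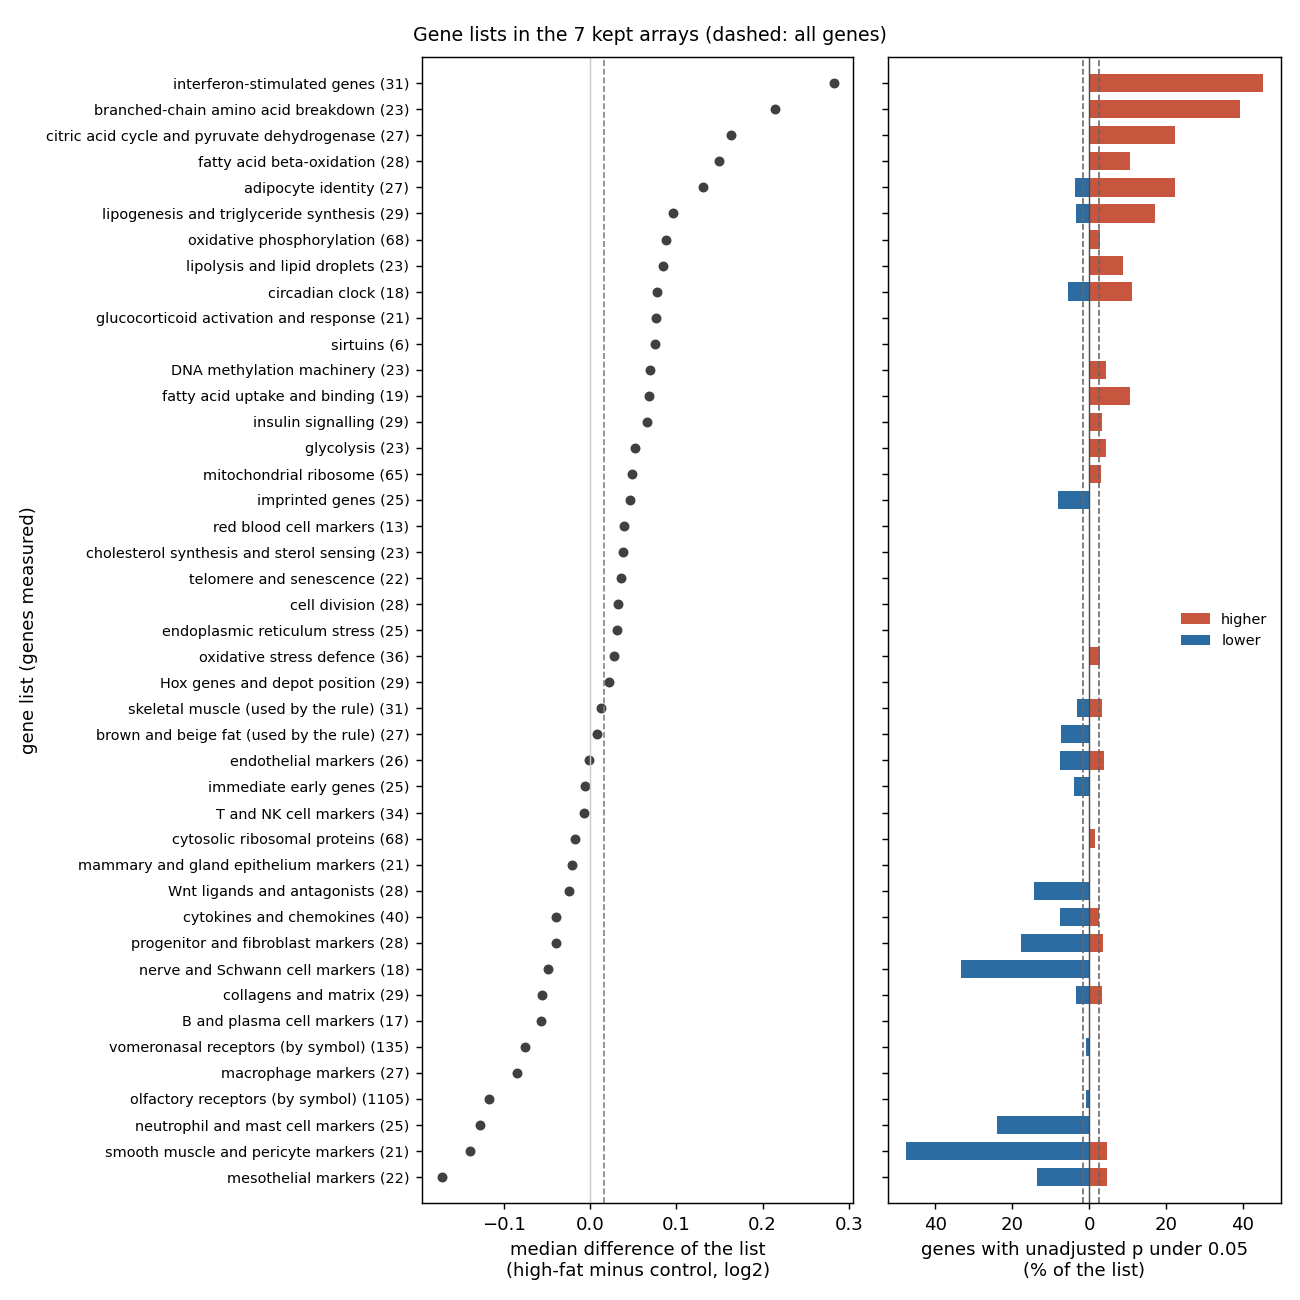
Gene lists in the 7 kept arrays, ordered by the median difference of their members (left panel, high-fat minus control, log2); the right panel gives the percent of members with an unadjusted p under 0.05, higher to the right and lower to the left. Dashed lines mark all genes, and the interferon-stimulated list lies at 0.28 at the top while the smooth muscle list has the longest bar to the left.

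Among the remaining genes with the smallest p, Bmp3, a bone morphogenetic protein that opposes others of its family, was at 9.84, 9.62, 9.81 and 9.93 in controls against 10.48, 10.88 and 10.22, and Nid2, a basement membrane nidogen, at 10.69, 10.42, 10.44 and 10.46 against 10.97, 11.31 and 10.88. Adamts5, a protease that cuts proteoglycans, was at 10.56, 10.45, 10.77 and 10.68 against 11.02, 11.44 and 11.06. Ctdspl, a phosphatase, was at 10.08, 10.09, 9.93 and 10.12 against 10.43, 10.57 and 10.34, and Paqr3, a Golgi membrane protein, at 9.25, 9.29, 9.17 and 9.55 against 9.77, 10.07 and 9.69. In all 5, high-fat 624 was the highest array and no groups overlapped.

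Cyp39a1, an oxysterol hydroxylase, was at 7.50, 7.33, 7.20 and 7.43 against 7.65, 7.91 and 7.82 and Slc13a3, a carrier of dicarboxylates such as succinate, at 8.08, 8.22, 7.87 and 7.96 against 8.56, 8.33 and 8.53. Ppia, the peptidyl-prolyl isomerase cyclophilin A, which is often used as a reference gene and has many near-identical processed copies that can share its signal, was at 10.81, 10.75, 10.77 and 10.75 against 11.16, 11.11 and 11.00. Cytl1, a secreted cytokine-like protein, was lower, at 10.61, 10.25, 10.40 and 10.78 against 9.97, 9.32 and 9.84. Of the imprinted genes, H19, a noncoding RNA expressed from the maternal allele, was at 9.77, 10.22, 9.65 and 9.68 against 8.85, 9.45 and 8.89, a difference of -0.77 ± 0.18 (p 0.00231). Of the 25 measured imprinted genes 0 were higher at an unadjusted p under 0.05, beside 2.65% of all genes, and 2 lower, beside 1.67%. The other lower gene was Cobl at -0.16 ± 0.07. Gadd45a, a DNA damage protein also linked to demethylation, led the DNA methylation list at 8.37, 8.14, 8.01 and 8.25 against 8.75, 8.93 and 8.38. In this list 1 of 23 members had an unadjusted p under 0.05, near the 4.32% of all genes. For each of the 24 leading genes, all 7 fits that left out 1 array kept the sign and an unadjusted p under 0.05, although the genes were chosen for their small p in the same arrays.

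The diet difference in the kept arrays was set against that in the 6 left-out arrays, which also hold 3 daughters of each kind of father but carry muscle, Ucp1 signal or both. The test was an interaction in limma over all 13 arrays. No gene passed it at an adjusted p under 0.05 (0 genes, 0.0%), with 573 at an unadjusted p under 0.05 (3.95%), 186 above (1.28%) and 387 below (2.67%). An intensity trend with robust variance also gave 0 genes. Susd2 had the smallest adjusted p, 0.138. In the left-out arrays it was at 9.54, 9.33 and 9.65 in controls and 9.59, 9.62 and 9.74 in the high-fat group, a difference of 0.14 ± 0.11, with all 6 between the levels of the 2 kept groups. The difference between the differences was -0.89 ± 0.12 (p 9.54e-06). For Slco2a1 the left-out arrays gave 9.05, 9.12 and 9.32 against 9.15, 9.62 and 9.74 and an interaction of -1.38 ± 0.23 (p 6.95e-05, adjusted p 0.504).

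Of the 31 interferon-stimulated genes, 1 was higher at an unadjusted p under 0.05 in the left-out high-fat arrays (3.74% of all genes were higher and 2.57% lower there). This was Ifit1, by 1.96 ± 0.82, which had high and low levels in both diet groups as given above. The median difference of the list was 0.04, beside 0.05 over all genes. Mx1 was at 7.37, 8.71 and 9.38 in the left-out controls and 7.85, 7.97 and 8.21 in the left-out high-fat arrays, and Mx2 at 7.99, 8.43 and 8.67 against 8.23, 7.97 and 8.28. The interaction was 0.98 ± 0.23 for Mx2 (p 0.00118, adjusted p 0.923) and 1.46 ± 0.54 for Mx1 (p 0.0183). Rsad2 had a higher mean in both sets, by 0.53 ± 0.08 in the kept and 0.29 ± 0.19 in the left-out arrays. Left-out controls 662 and 664 were close below kept high-fat 660 for Herc6, at 9.34 and 9.29 against 9.40, while control 658 was at 8.57.

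Of the 6 nerve and Schwann members that were lower in the kept arrays, 5 had a higher mean in the left-out high-fat arrays, and Egr2 had a lower mean there too, by -0.21 ± 0.18. Mal was at 8.08, 8.98 and 8.19 in controls and 8.22, 10.86 and 10.36 in the high-fat group there, with an interaction of -3.14 ± 0.90 (p 0.00446, adjusted p 0.923). Apod was at 7.45, 10.91 and 9.62 against 9.82, 12.37 and 12.32, an interaction of -4.90 ± 1.32 (p 0.00279). In both genes the high level was found in controls 622, 627 and 656 and in high-fat 629 and 663, that is in both diet groups, and left-out control 662 lay between. Of the 18 nerve and Schwann genes 6 had an interaction below 0 at an unadjusted p under 0.05, beside 2.67% of all genes.

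Among the mast cell genes the tryptases, Fcer1a and Cpa3 had a higher mean in the left-out high-fat arrays. Fcer1a was at 6.63, 6.93 and 6.71 in the left-out controls and 7.06, 6.86 and 7.24 in the left-out high-fat arrays, a difference of 0.30 ± 0.13 and an interaction of -0.72 ± 0.21 (p 0.00454, adjusted p 0.923). Tpsab1 differed by 0.31 ± 0.20 there, with an interaction of -0.77 ± 0.27 (p 0.013), Tpsb2 by 0.10 ± 0.13, with an interaction of -0.38 ± 0.16 (p 0.0375), and Cpa3 by 0.20 ± 0.22 (interaction p 0.0637). Ms4a2 differed by -0.00 ± 0.12 in the left-out arrays, and Retnlg had a lower mean in both sets, by -0.46 ± 0.36 in the left-out arrays. Of the 25 neutrophil and mast cell genes 3 had an interaction below 0 at an unadjusted p under 0.05, beside 2.67% of all genes. An interaction above 0 was found for 1, beside 1.28%.

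The smooth muscle and pericyte list had a median difference of -0.17 in the left-out arrays, with 0 of 21 members at an unadjusted p under 0.05, and control 658 stood far above the other 12 arrays, at 12.65 for Tagln and 11.73 for Cnn1. The branched-chain list had a median of 0.21 in the kept and 0.18 in the left-out arrays, with 0 of 23 interactions at an unadjusted p under 0.05, beside 3.95% of all genes.

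**Figure D5:**
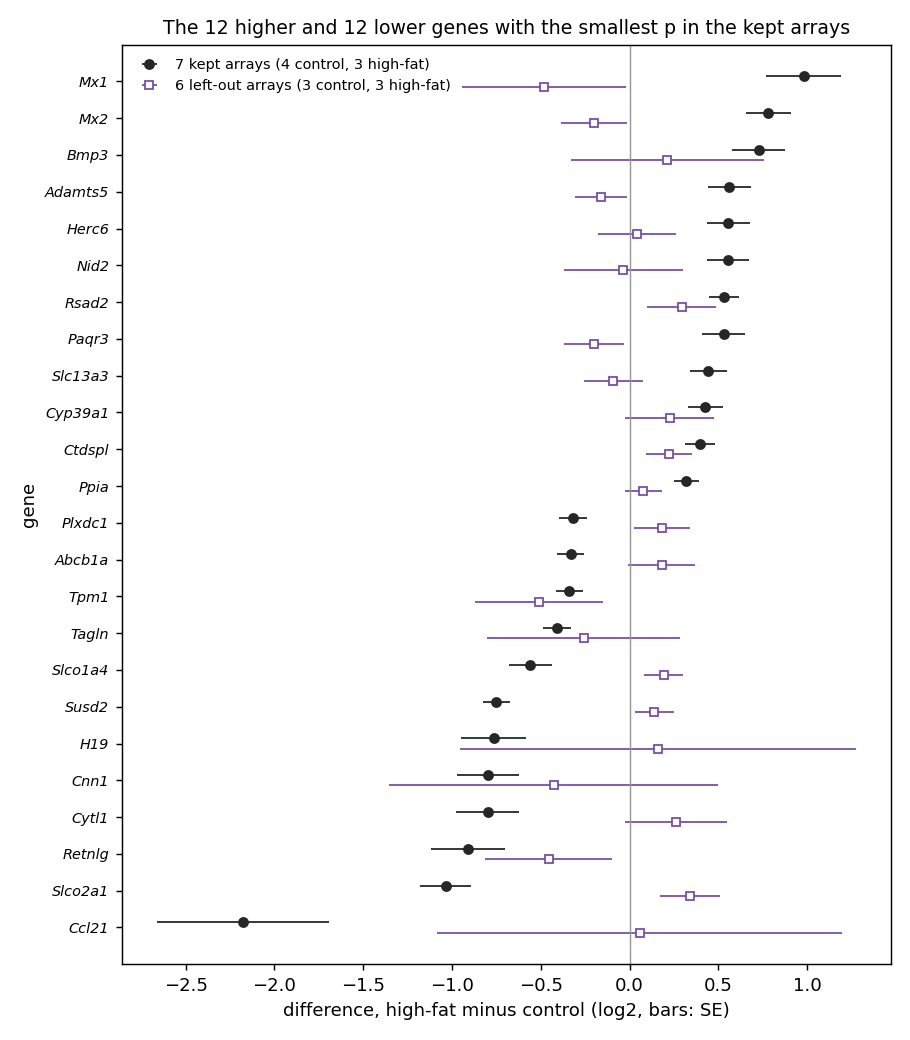
Difference between high-fat and control arrays (x axis, log2, bars are standard errors) for the 12 higher and 12 lower genes with the smallest p in the kept arrays; circles are the 7 kept and squares the 6 left-out arrays. The genes were chosen in the kept arrays. In the left-out arrays Susd2, Slco2a1, Mx1 and Mx2 lie on the other side of 0. So do Nid2, Adamts5, Paqr3, Slc13a3, Slco1a4, Cytl1, Ccl21, Abcb1a, H19 and Plxdc1. The other genes shown keep their side, among them Rsad2, Herc6, Tagln and Retnlg.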

How the data were processed

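Fat RNA of 13 female rats was measured on Affymetrix arrays. The authors' deposited table holds log2 values of 29214 probes, from 3.24 to 14.54, and per the submitters' processing notes RMA (background correction, normalization between arrays and summary of probe sets) and Partek were used, with no version given in the sources used here. No scanner files were used, so background and detection were not assessed. Precision is limited by the number of arrays. Pairs of the 7 kept arrays correlated at 0.970 to 0.995 with at most 495 identical values, and their medians were 7.66 to 7.72.

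Probes were named from the platform annotation, which lists 15633, 15310 of them with 1 gene symbol, 323 with several and the other 13581 unnamed here. For 527 genes with several probes the brightest over the 7 arrays was kept, giving 14506 genes with no filter on dim genes. The comparison used lmFit and eBayes of limma 3.58.1 as supplied (R 4.3.3), without a covariate. Tests were two-sided, p-values were adjusted by Benjamini-Hochberg across the 14506 genes, and the threshold was 0.05. The interaction was fitted over 13 arrays in 4 groups. A permutation of 3 against 4 arrays has 35 arrangements and cannot go below p = 0.057, so none is given for single genes. The fit was tested on 5 simulated sets with 200 differing genes each. Start-site sequences are from RefSeq, where 24 of the 31 interferon members had a window.

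The rule for keeping arrays and the gene lists were chosen with earlier results of these data known. Genes were named as the 12 higher and 12 lower with the smallest p leaving out locus numbers, up to 4 members with the smallest p per list described, Adipoq, Lep, Pparg, Slc2a4, Myh4 and Ucp1, and 10 genes named in earlier work on all 13 arrays. Any other gene was named after its values were seen.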

Additional observations from a re-analysis of the deposited data

Results flagged for a closer look

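In groups of 4 arrays, 77 values were examined for a single array that stands apart, by its gap to the nearest of the others over the whole range, against Dixon's critical value. Chance gives about 1 such group in 20, and 3 were found, all among the controls. Ucp1 had a ratio of 0.870, where control 622 at 7.40 stood above the other 3 controls at 6.41 to 6.54. Its values chose these arrays, so this ratio is a description only. Nid2 had a ratio of 0.858, where control 622 at 10.69 stood above 10.42, 10.44 and 10.46 in controls 627, 631 and 656, and was still below each high-fat array. The mean level of the insulin signalling genes had a ratio of 0.834, where control 631 at 9.73 stood below 9.86, 9.88 and 9.88, and the high-fat arrays were at 9.92, 10.02 and 9.82.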

How the results depend on the processing

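The count of 0 genes at an adjusted p under 0.05 became 1, Susd2, after renewed quantile normalization, with the genes above the middle level alone, with an intensity trend and robust variance, in the 4-group fit over all arrays and at an adjusted p under 0.1. The 385 genes higher at an unadjusted p under 0.05 became 585 with the array's standard deviation as a covariate, 786 over all 13 arrays and 997 within numbers 619 to 631, and the 242 lower genes became 474, 369 and 695, 123 with the genes above the middle level, 140 without moderation and 145 with the Myh4 limit alone. Leaving out 1 array at a time gave 134 to 1180 higher and 140 to 724 lower. Centring each array on its median raised the share of higher genes among the calls from 61.4% to 69.9% and shifted the median of all genes by 0.02. Limits of 7 in place of 8 leave out control 622 alone, and limits of 9 keep the same 7 arrays. Over all 13 arrays the sign turned for Myh4 (0.034), Ucp1 (0.48, and 0.28 with the Myh4 limit alone), Prx (0.022), Sfrp5 (0.063), Ifit1 (0.19), Irf7 (-0.0085), Ldb3 (-0.020), Sox10 (0.026), Pmp22 (0.051) and Kit (0.047), where the cause was not tested. Kit was also at 0.020 within numbers 619 to 631 and 0.030 with the Myh4 limit alone, and Bst2 at 0.0096 and 0.016. With the Myh4 limit alone Abcc9 was at 0.0095 and Smtn at -0.045, with the array's standard deviation as a covariate Smtn was at -0.0011 and Notch3 at -0.0067, and Notch3 was at -0.0067 after renewed quantile normalization. Mbp was at -0.38 with the mean of its probes. Over the fits without 1 array Bst2 ran from -0.095 to 0.015, Pparg from -0.022 to 0.11, Smtn from -0.029 to 0.065, Abcc9 from -0.20 to 0.0054 and Notch3 from -0.089 to 0.073. No paired analysis was possible because the numbers in the labels name single daughters and no number is shared between groups. With the number range as a block the counts were 0, 374 and 274. Detection on single probes could not be judged from these values.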

Other observations

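The 10 genes named for the smallest p over all 13 arrays in earlier work had the same sign in the 7 kept arrays, which are part of the 13. Hmox2, a heme oxygenase, differed by 0.29 ± 0.07, Mrpl21, of the mitochondrial ribosome, by 0.26 ± 0.08, Ndufaf1, which helps to assemble the first respiratory complex, by 0.36 ± 0.13 and Aldh6a1, of valine breakdown, by 0.16 ± 0.07. Angptl1, a secreted angiopoietin-like protein, differed by -0.32 ± 0.12, the dopamine receptor Drd1 by -0.23 ± 0.09 and Usp44, a deubiquitinase, by -0.14 ± 0.07. Aco1, Rsad2 and Ctdspl are described above.

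Clock genes were spread over both directions. Of 18 measured members 2 were higher at an unadjusted p under 0.05, beside 2.65% of all genes, and 1 lower, beside 1.67%. Npas2, an activator of the clock, was at 10.12, 10.49, 10.20 and 10.56 in controls and 10.18, 9.19 and 9.93 in the high-fat arrays. Per2, a repressor of the clock, was at 8.57, 8.31, 8.33 and 8.59 against 8.48, 8.90 and 8.89. Both overlapped between the groups, and the hour at which fat was taken is not given. Among the cytokines, Ccl7, a chemokine for monocytes, was at 8.97, 9.09, 9.00 and 9.12 against 8.41, 8.63 and 8.82 without overlap, and Spp1, osteopontin, at 8.55, 8.27, 7.54 and 9.01 against 7.54, 7.75 and 7.66, with control 631 at the high-fat level.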
